A study of Mus musculus with 75 samples.

Results

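The laminin chains of the basement membrane were followed in lung RNA from 75 male C57BL/6JRj mice of the BLEO-IPF model. The 9 chains described, chosen by name, were the alpha chains *Lama2*, *Lama3*, *Lama4* and *Lama5*, the beta chains *Lamb1*, *Lamb2* and *Lamb3*, and the gamma chains *Lamc1* and *Lamc3*, out of 55536 genes in the count table. All 9 were among the 16221 genes that passed the filter on low counts and were tested. *Lama1*, a further alpha chain, is given for comparison.

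Mice aged 12 to 14 weeks were instilled once through the trachea with bleomycin (BLEO), a cytotoxic drug widely used to provoke lung fibrosis in rodents, and were terminated on day 7 (n = 10), days 14, 21, 28 and 35 (n = 12 each) or day 42 (n = 7). Only mice that had lost 5% to 17% of body weight at day 6 entered the BLEO-IPF groups, so animals with smaller or larger losses are not represented. Controls (CTRL, n = 10) were given saline according to the sample names, whereas the treatment protocol calls them untreated. Each library held polyadenylated RNA of a single inferior lobe, with 9240291 to 14665247 counts on genes (median 10677163). Markers of alveolar and airway epithelium were present in all 75 libraries, with summed levels of at least 6375 CPM (counts scaled by library size) for type 2 pneumocytes (AT2 cells) and 2911.5 CPM for type 1 pneumocytes (AT1 cells). The library of replicate 10 on day 28 stood apart, with 1977 CPM of skeletal muscle markers against at most 61.1 CPM in the other 74 libraries, and 2037 CPM of cardiac markers against at most 658 CPM.

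Laminins are proteins, many of them cross-shaped, in which an alpha, a beta and a gamma chain are joined along a coiled coil. They lie beneath epithelial, endothelial, muscle and Schwann cells, where many of them polymerize. Laminins bind integrins and dystroglycan on the cell, and are linked by nidogen and heparan sulfate proteoglycans to the type IV collagen network. The alpha chain largely sets the site and the receptor. *Lama3* and *Lamb3* occur together in the epithelial laminin of hemidesmosomes, *Lama5* is the main alpha chain of mature alveolar and vascular basement membranes, *Lama4* is typical of endothelium and mesenchymal cells, and *Lama2* is typical of muscle, nerve and other mesenchymal cells. *Lamb1*, *Lamb2* and *Lamc1* are widely shared partners.

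Promoter windows were printed for 4 chains that differed in their course below. *Lamb1* and *Lama5* rose by day 14 and were lower again on day 42, *Lamb3* was higher than CTRL on all 6 days, and *Lamb2* was higher on none. Each window runs from 250 bases before to 50 bases after a RefSeq transcription start of GRCm38.p6, 5′ to 3′ on the strand of the gene. Capitals mark matches on either strand to any of 5 motifs that were searched, and no matches in the printed windows overlap each other. AP-1 sites were searched as TGANTCA. TEAD sites were searched as GGAATG. Sp1 sites were searched as GGGCGG. Smad sites were searched as CAGACA. The TATA box was searched as TATAAA.
Lamb1, chr12:31265043-31265342, plus strand: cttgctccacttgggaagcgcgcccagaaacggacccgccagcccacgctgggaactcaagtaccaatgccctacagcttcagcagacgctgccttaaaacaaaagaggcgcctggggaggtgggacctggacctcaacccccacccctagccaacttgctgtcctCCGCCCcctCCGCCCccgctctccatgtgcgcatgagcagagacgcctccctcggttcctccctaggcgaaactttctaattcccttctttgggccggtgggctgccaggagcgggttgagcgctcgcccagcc
Lama5, chr2:180225810-180226109, minus strand: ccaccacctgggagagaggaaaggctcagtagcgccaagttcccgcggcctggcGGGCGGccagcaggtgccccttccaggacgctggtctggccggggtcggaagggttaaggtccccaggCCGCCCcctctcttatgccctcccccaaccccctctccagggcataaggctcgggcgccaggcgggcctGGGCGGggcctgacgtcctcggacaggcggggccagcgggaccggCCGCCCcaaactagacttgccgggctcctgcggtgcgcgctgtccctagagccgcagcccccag
Lamb3, chr1:193301744-193302043, plus strand: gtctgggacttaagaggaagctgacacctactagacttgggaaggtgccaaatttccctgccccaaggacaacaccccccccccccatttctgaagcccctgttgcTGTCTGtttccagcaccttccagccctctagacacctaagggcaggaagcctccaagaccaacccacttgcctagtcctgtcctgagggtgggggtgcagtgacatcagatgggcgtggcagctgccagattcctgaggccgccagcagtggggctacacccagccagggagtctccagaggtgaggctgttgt
Lamb2, chr9:108479612-108479911, plus strand: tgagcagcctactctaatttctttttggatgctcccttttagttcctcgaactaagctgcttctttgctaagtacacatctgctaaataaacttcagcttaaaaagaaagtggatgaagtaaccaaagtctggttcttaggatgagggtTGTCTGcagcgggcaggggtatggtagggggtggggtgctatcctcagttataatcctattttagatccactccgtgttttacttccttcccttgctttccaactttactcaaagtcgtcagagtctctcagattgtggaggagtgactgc
The windows of *Lamb1* and *Lama5* held 2 and 4 matches to the Sp1 motif, which is present in 35.7% of the 32851 promoter windows of the RefSeq table. Those of *Lamb3* and *Lamb2* held 1 match each to the Smad motif, found in 21% of all windows, and none to the Sp1 motif. The AP-1, TEAD and TATA box motifs, found in 7.81%, 14.7% and 13.6% of all windows, had 0 matches in these 4. The GC content was 63.7% for *Lamb1*, 72.7% for *Lama5*, 59.3% for *Lamb3* and 44% for *Lamb2*, against a median of 52.7% over all windows. A second listed start of *Lamb3*, whose window overlaps the first, had 1 match to the TEAD motif, and the window of *Lama2* had 1 match to the Sp1 motif. Promoters of 5 of the 9 chains were matched in the table, and *Lama3*, *Lama4*, *Lamc1* and *Lamc3* were not.

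Across the 7 groups, expression of each of the 9 chains varied by the F test over all groups (adjusted p from 1.28e-09 for *Lamc1* to 0.0161 for *Lamb2*), as did 67.8% of all genes tested. Against CTRL, 2 of the 9 chains were raised and 3 lowered on day 7, where 24.8% and 21% of all genes were raised and lowered. On days 14, 21 and 28, 6 chains were raised and 0 lowered, and they were *Lama2*, *Lama5*, *Lamb1*, *Lamb3*, *Lamc1* and *Lamc3* on each of these days. The shares raised among all genes were 32.4%, 28.3% and 24.1%, and those lowered were 29.9%, 25.8% and 19.2%. On day 35, 3 chains were raised (background 16.9%) and 1 was lowered (13.1%). On day 42, *Lamb3* alone of the 9 was raised (13.7%) and *Lama4* alone was lowered (11%). In the 6 groups from day 7 to day 42 in turn, the median log2 fold change (log2FC) of the 9 chains was 0.06, 0.50, 0.43, 0.36, 0.24 and 0.11, while that of all genes tested stayed between -0.0024 and 0.018. All days share the same CTRL mice.

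**Figure D1:**
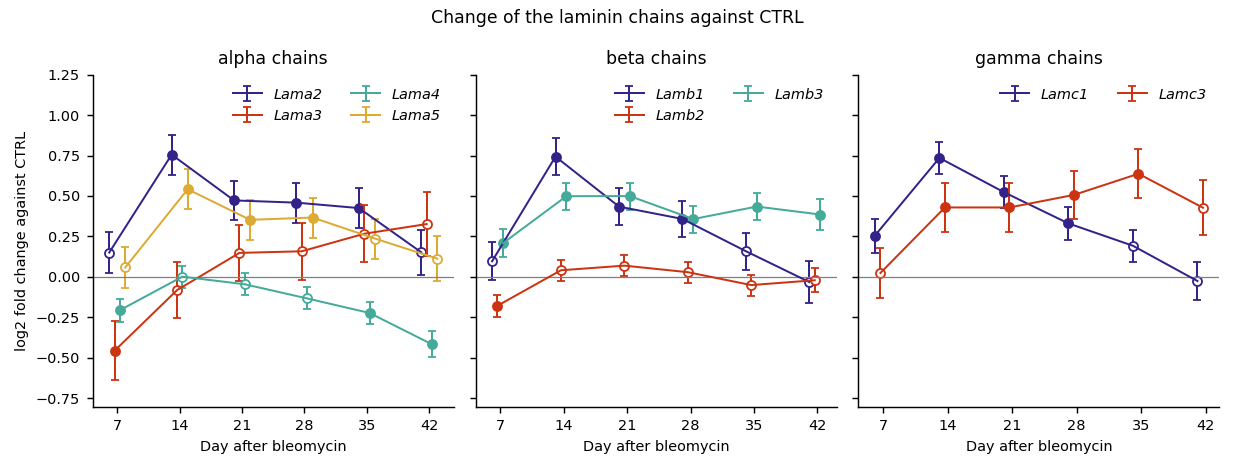
Log2 fold change against CTRL (y axis) by day after bleomycin (x axis) for the alpha, beta and gamma chains, with bars for the standard error and points shifted sideways for legibility. Filled points have an adjusted p under 0.05 and open points do not; *Lama2*, *Lama5*, *Lamb1* and *Lamc1* are highest on day 14, *Lamb3* is filled on all 6 days and *Lama4* is lowest on day 42.

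Compared directly, 7 of the 9 chains were higher on day 14 than on day 7, all but *Lama3* and *Lamc3*, where 9.48% of all genes were higher. The differences in log2 expression were 0.65 for *Lamb1*, 0.60 for *Lama2*, 0.48 for *Lama5* and *Lamc1*, 0.29 for *Lamb3*, 0.22 for *Lamb2* and 0.21 for *Lama4* (adjusted p at most 0.026). *Lama4* and *Lamb2* were lowered on day 7 and at 0.0020 and 0.04 against CTRL on day 14, while *Lamb3* and *Lamc1* were already raised on day 7. *Lama3* was higher than on day 7 from day 21 onwards, together with *Lamb1*, *Lamb2* and *Lamb3* on day 21 (4 chains; 7.5% of all genes), *Lamb2* and *Lamc3* on day 28 (3 chains; 8.87%), *Lamb3* and *Lamc3* on day 35 (3 chains; 10.4%) and no other chain on day 42 (1 chain; 7.88%). Between day 14 and day 21, 0 of the 9 chains passed the test, as did 1.03% of all genes. By day 28, *Lamb1* and *Lamc1* had fallen below their day 14 level, with log2 differences of -0.38 and -0.40 (2 chains; 13.2% of all genes). On day 35, 5 chains were lower than on day 14 (23.1% of all genes), and the same 5, *Lama2*, *Lama4*, *Lama5*, *Lamb1* and *Lamc1*, were lower on day 42 than on day 14 (18.8%), while the number of chains that were higher was 0 (15.2%). *Lama4*, *Lamb1* and *Lamc1* were also lower on day 42 than on day 21 (3 chains; 6.55%).

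*Lamc1* (ENSMUSG00000026478, chromosome 1, 153218922 to 153332786 of GRCm38, minus strand) encodes gamma 1, the gamma chain of most laminins. It ranged from 239 to 366 CPM in CTRL (median 307), from 232 to 460 CPM on day 7 (median 349) and from 344 to 744 CPM on day 14 (median 497). On day 14, 11 of 12 mice lay above all CTRL mice. The range was 339 to 517 CPM on day 21 (median 440), 291 to 524 CPM on day 28 (median 362) and 306 to 436 CPM on day 35 (median 343). By day 42 it was 264 to 357 CPM (median 285), and no mouse lay above the CTRL range. The log2FC was 0.26 on day 7 (standard error 0.10, adjusted p = 0.0388), 0.74 on day 14 (0.10, adjusted p = 4.17e-09) and -0.03 on day 42 (0.12, adjusted p = 0.902). The difference between day 42 and day 14 was -0.76 (standard error 0.11, adjusted p = 4.65e-07). The call on day 7 was lost with DESeq2 (adjusted p = 0.0604) and without the filter on low counts (adjusted p = 0.0723).

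*Lamb1* (ENSMUSG00000002900, chromosome 12, 31265234 to 31329644, plus strand) encodes beta 1, its usual partner. CTRL mice lay close together, from 176 to 228 CPM (median 206), and mice on day 7 reached from 176 to 265 CPM (median 212). On day 14 the range widened to 223 to 556 CPM (median 286), with 11 of 12 mice above all CTRL mice. Day 21 ranged from 217 to 387 CPM (median 264), day 28 from 205 to 412 CPM (median 237), day 35 from 200 to 280 CPM (median 217) and day 42 from 176 to 222 CPM (median 204). All 7 mice on day 42 thus lay within the CTRL range. The log2FC was 0.74 on day 14 (standard error 0.11, adjusted p = 7.69e-08), 0.43 on day 21 (0.11, adjusted p = 0.000931) and 0.36 on day 28 (0.11, adjusted p = 0.0080). It was 0.16 on day 35 (adjusted p = 0.302) and -0.03 on day 42 (adjusted p = 0.892). From day 14 to day 42 it fell by 0.77 on the log2 scale (standard error 0.13, adjusted p = 3.95e-06).

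*Lama5* (ENSMUSG00000015647, chromosome 2, 180176373 to 180225859, minus strand), encoding alpha 5, spanned 173 to 288 CPM in CTRL (median 224) and 145 to 276 CPM on day 7 (median 245). It spanned 222 to 521 CPM on day 14 (median 285), 198 to 356 CPM on day 21 (median 294) and 188 to 381 CPM on day 28 (median 280). On these 3 days, 5, 7 and 5 of the 12 mice lay above all CTRL mice, and the others overlapped them. It was 183 to 390 CPM on day 35 (median 262) and 188 to 324 CPM on day 42 (median 219). The log2FC was 0.54 on day 14 (standard error 0.12, adjusted p = 0.000125), 0.35 on day 21 (0.12, adjusted p = 0.0126) and 0.37 on day 28 (0.12, adjusted p = 0.0123). It was 0.24 on day 35 (adjusted p = 0.140) and 0.11 on day 42 (adjusted p = 0.596), the latter lower than on day 14 by a log2 difference of -0.43 (standard error 0.14, adjusted p = 0.0122).

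*Lama2* (ENSMUSG00000019899, chromosome 10, 26980036 to 27619758, minus strand) encodes alpha 2, the chain that binds dystroglycan in muscle. Its range was 76.7 to 135 CPM in CTRL (median 102), 67.8 to 141 CPM on day 7 (median 112) and 110 to 316 CPM on day 14 (median 150). It was 107 to 174 CPM on day 21 (median 135), 113 to 196 CPM on day 28 (median 129) and 113 to 179 CPM on day 35 (median 130), and 98.8 to 129 CPM on day 42 (median 105). Above all CTRL mice lay 9 of 12 mice on day 14, 5 or 6 of 12 on days 21, 28 and 35, and 0 of 7 on day 42. The log2FC was 0.76 on day 14 (standard error 0.12, adjusted p = 2.92e-07), 0.47 on day 21 (adjusted p = 0.000851), 0.46 on day 28 (adjusted p = 0.00175) and 0.43 on day 35 (adjusted p = 0.00537). On day 42 it was 0.15 (adjusted p = 0.454), a log2 difference of -0.60 from day 14 (standard error 0.14, adjusted p = 0.000481).

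Replicates 1 and 8 were the highest of the 12 mice on day 14 in *Lama2*, *Lama5*, *Lamb1*, *Lamc1* and *Lama4*. Without replicate 1, the day 14 log2FC was 0.64 for *Lama2*, 0.48 for *Lama5*, 0.66 for *Lamb1* and 0.68 for *Lamc1*. Without replicate 8, these values were 0.69, 0.46, 0.68 and 0.68, and all of them were still called. Replicates 1 and 8 also had AT2 marker sums of 6375 and 7932 CPM, ranks 75 and 73 of the 75 libraries counted from the highest. Replicates 3 and 2 of day 14 had similarly low sums, 7371 and 9068 CPM (ranks 74 and 72). Of these, replicate 2 was among the 3 lowest mice of day 14 in *Lama2*, *Lama4*, *Lama5* and *Lamc1*. Replicate 3 was among the 3 highest in *Lamb1* and the 3 lowest in *Lama4*.

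*Lamb3* (ENSMUSG00000026639, chromosome 1, 193207699 to 193343878, plus strand) encodes beta 3, found in the epithelial laminin that anchors keratinocytes and other epithelia. It was the single chain of the 9 raised on all 6 days, and *Lama1*, outside the 9, was raised on all 6 as well. The share of all genes raised on all 6 days was not counted. CTRL mice spanned 131 to 172 CPM (median 159), and mice on day 7 spanned 161 to 191 CPM (median 179), with 6 of 10 above all CTRL mice. The range was 186 to 277 CPM on day 14 (median 216) and 181 to 257 CPM on day 21 (median 220.4), and on both days all 12 mice lay above all CTRL mice. This held for *Lamb3* alone of the 9 chains, where 9.46% of all genes on day 14 and 6.84% on day 21 had all mice above all CTRL mice. The range was 128 to 251 CPM on day 28 (median 195), 157 to 264 CPM on day 35 (median 202) and 142 to 279 CPM on day 42 (median 200), and 10, 11 and 6 mice lay above CTRL. The lowest value on day 28 was from replicate 10, the library with muscle markers. The log2FC was 0.21 on day 7 (standard error 0.09, adjusted p = 0.0421), 0.50 on day 14 (0.08, adjusted p = 4.88e-07) and 0.39 on day 42 (0.09, adjusted p = 0.00169). The day 7 call was lost with DESeq2 (adjusted p = 0.0678) and without the filter (adjusted p = 0.0841). Day 42 differed from day 14 by a log2 value of -0.11 (95% interval -0.29 to 0.07, adjusted p = 0.351).

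*Lama3* (ENSMUSG00000024421, chromosome 18, plus strand) encodes alpha 3, the partner of *Lamb3*, yet followed another course. It ranged from 162 to 283 CPM in CTRL (median 207) and from 105 to 200 CPM on day 7 (median 154), when 7 of 10 mice lay below all CTRL mice. The log2FC on day 7 was -0.46 (standard error 0.18, adjusted p = 0.0357), a call that was lost without the filter on low counts (adjusted p = 0.0652). Mice diverged on day 14, from 78.8 to 311 CPM (median 199), with 4 of 12 below and 3 above all CTRL mice. The range was 141 to 301 CPM on day 21 (median 244), 69.4 to 375 CPM on day 28 (median 243), 206 to 319 CPM on day 35 (median 240) and 165 to 383 CPM on day 42 (median 260). None of these days was called against CTRL. The log2FC was -0.08 on day 14 (95% interval -0.42 to 0.26) and 0.33 on day 42 (-0.07 to 0.72). With only the groups compared in the fit, day 35 was called (log2FC 0.28, adjusted p = 0.0140). Compared with day 7, *Lama3* was higher on day 21 (log2 difference 0.60, adjusted p = 0.0138), day 28 (0.61, adjusted p = 0.00983), day 35 (0.72, adjusted p = 0.00156) and day 42 (0.78, adjusted p = 0.0032).

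*Lamc3* (ENSMUSG00000026840, chromosome 2, 31887291 to 31946539, plus strand) encodes gamma 3, a chain of restricted distribution, and had the fewest reads, 183 to 613 counts per library. It ranged from 15.8 to 27.8 CPM in CTRL (median 21.9), from 15.9 to 33.96 CPM on day 7 (median 22.1) and from 17.3 to 50.2 CPM on day 14 (median 29.6). Later ranges were 16.7 to 38.9 CPM on day 21 (median 30.7), 21.3 to 55.6 CPM on day 28 (median 28.0), 27.3 to 47.2 CPM on day 35 (median 33.5) and 20.5 to 45.8 CPM on day 42 (median 29.9). Its highest group was day 35, with 11 of 12 mice above all CTRL mice. Day 35 did not differ from day 14 in the direct test (log2 difference 0.21, standard error 0.14, adjusted p = 0.229). The log2FC was 0.02 on day 7 (adjusted p = 0.912), 0.43 on day 14 (standard error 0.15, adjusted p = 0.0106), 0.64 on day 35 (0.15, adjusted p = 0.000649) and 0.43 on day 42 (0.17, adjusted p = 0.0558). Days 42 and 14 differed by a log2 value of -0.0019 (95% interval -0.32 to 0.32).

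*Lama4* (ENSMUSG00000019846, chromosome 10, 38965515 to 39110188, plus strand), which encodes alpha 4, was the chain that ended below CTRL. Mice ranged from 137 to 178 CPM in CTRL (median 161), from 106 to 171 CPM on day 7 (median 136) and from 137 to 213 CPM on day 14 (median 164). The range was 129 to 178 CPM on day 21 (median 157), 128 to 174 CPM on day 28 (median 144), 122 to 164 CPM on day 35 (median 137) and 107 to 131 CPM on day 42 (median 121). All 7 mice on day 42 lay below all CTRL mice, as was the case for 3.37% of all genes. The log2FC was -0.21 on day 7 (standard error 0.07, adjusted p = 0.0143), 0.0020 on day 14 (0.07, adjusted p = 0.983), -0.22 on day 35 (0.07, adjusted p = 0.00885) and -0.42 on day 42 (0.08, adjusted p = 5.78e-05). Compared directly, day 42 was lower than day 14 by a log2 difference of -0.42 (standard error 0.08, adjusted p = 2.19e-05), than day 21 by -0.37 (adjusted p = 0.000569) and than day 28 by -0.28 (adjusted p = 0.0488), when 0.82% of all genes were lower on day 42 than on day 28. Endothelial markers were lower in the same mice, 8 of 9 on day 35 (13.1% of all genes) and 5 of 9 on day 42 (11%), but also 8 of 9 on day 14 (29.9%), when *Lama4* was at 0.0020, with summed levels of 4201 to 5631 CPM in CTRL and 3010.5 to 4958 CPM on day 42. Their part in the result was not tested. In whole-lobe RNA, fewer cells of a type and less RNA per cell cannot be told apart.

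*Lamb2* (ENSMUSG00000052911, chromosome 9, 108479736 to 108490530, plus strand), encoding beta 2 of vessels, smooth muscle and nerve, moved least. It ranged from 230.4 to 306 CPM in CTRL (median 269), 208 to 284 CPM on day 7 (median 236) and 228 to 315 CPM on day 14 (median 285). It then ranged from 252 to 323 CPM on day 21 (median 285), 231 to 318 CPM on day 28 (median 272), 179 to 311 CPM on day 35 (median 269) and 237 to 296 CPM on day 42 (median 270). The day 7 log2FC of -0.18 (standard error 0.07, adjusted p = 0.0256) was the single call against CTRL, with 4 of 10 mice below all CTRL mice, and it was lost without the filter on low counts (adjusted p = 0.0620). On days 14 to 42 the log2FC lay between -0.05 and 0.07, and for day 14 its 95% interval was -0.08 to 0.17.

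**Figure D2:**
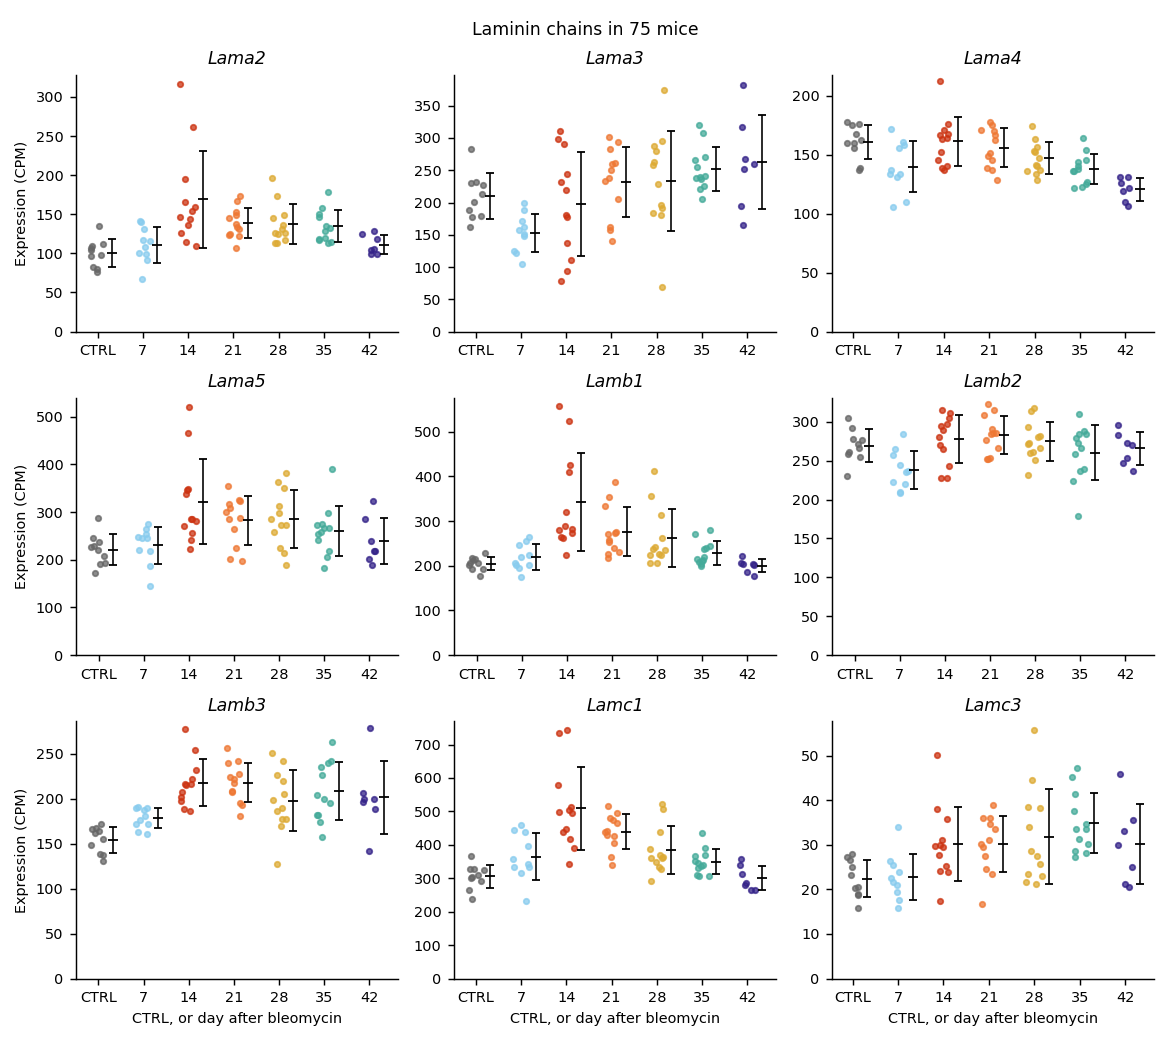
Expression in CPM (y axis, from 0) of the 9 chains in each mouse, by group (x axis: CTRL or day after bleomycin), with 1 point per mouse and the mean and SD as a black bar beside the points. On day 14, 2 mice stand above the rest in *Lama2*, *Lama5* and *Lamb1*; *Lamb3* of days 14 and 21 clears the CTRL points, and *Lama4* of day 42 lies under them.

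For each chain the groups were ordered by their means. Of 54 neighbouring pairs over the 9 chains, 1 passed the test, *Lamb3* on day 7 against CTRL. Neighbours in such an order are picked for their small gaps, so a low count comes from the ordering itself. The order that follows is descriptive. *Lama2*, *Lamb1* and *Lamc1* were highest on day 14, followed by day 21, day 28 and, for *Lama2* and *Lamb1*, day 35. *Lama5* was highest on day 14, followed by day 28 and day 21. *Lamb3* and *Lamb2* had days 21 and 14 on top, *Lamc3* days 35 and 28, *Lama3* days 42 and 35, and *Lama4* CTRL and day 14. CTRL was lowest for *Lama2*, *Lama5*, *Lamb3* and *Lamc3*, day 42 for *Lamb1*, *Lamc1* and *Lama4*, and day 7 for *Lama3* and *Lamb2*.

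*Lama1*, encoding the alpha 1 chain of early embryonic basement membranes, ranged from 1.05 to 3.9 CPM in CTRL (median 2.46), with at least 11 counts in each library of the study. It ranged from 18.5 to 51.4 CPM on day 14 (median 31.9), above all CTRL mice, and from 3.52 to 26.2 CPM on day 42 (median 12.2). The log2FC was 3.76 on day 14 (standard error 0.42, adjusted p = 7.27e-12) and 2.61 on day 42 (0.45, adjusted p = 1.12e-05).

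Levels between genes were compared per kilobase of merged exons (CPM/kb). In CTRL mice the median was 19.7 CPM/kb for *Lama5*, 19.3 for *Lama3*, 13.3 for *Lama4*, 6.22 for *Lama2* and 0.254 for *Lama1*. *Lamb2* led the beta chains with a median level of 44.3 CPM/kb, against 23.99 for *Lamb3* and 20.8 for *Lamb1*. Among gamma chains the median level was 37.1 CPM/kb for *Lamc1* and 3.6 for *Lamc3*. The order depends on the length used. Per kilobase of the longest annotated transcript, the median level of *Lama4* became 26.6, above *Lama5* and *Lama3*, and that of *Lamb1* (35.6) exceeded *Lamb3* (32.6). Shares within a class were not tested. Per kilobase of merged exons, the median share of *Lamb1* in the summed beta chains was 23.4% in CTRL (21.3% to 24.3%), 28.7% on day 14 (22.2% to 40.7%) and 21.3% on day 42 (18.5% to 27.03%), while that of *Lamb2* was 50.5%, 41.6% and 46.9%. The median share of *Lama4* in the summed alpha chains was 23.01% in CTRL, 17.95% on day 14 and 16.2% on day 42, and the share of *Lama3* was 33.2%, 28.7% and 38.9%. Per kilobase of the longest transcript, the share of *Lamb1* was 30.9%, 36.5% and 28.0%, that of *Lamb2* 41.9%, 33.4% and 38.7%, that of *Lama4* 35.1%, 27.8% and 26.1%, and that of *Lama3* 26.1%, 22.5% and 32.2%.

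Within groups, mice with more of one chain mostly had more of the others. After removal of group means, log2 CPM of 28 of the 36 pairs of chains correlated over the 75 mice (two-sided permutation test within groups, adjusted over the 36 pairs), 27 positively and 1 negatively, with a median Pearson r of 0.51. The correlation of each chain with all other genes tested had a median between -0.03 and 0.00051, a 5th percentile between -0.56 and -0.37 and a 95th percentile between 0.41 and 0.57. Called pairs reached down to r = 0.29 (*Lamb2* and *Lamc3*), inside these percentiles for both chains. The share of all gene pairs that would pass the same test was not counted. The closest pair was *Lama5* and *Lamc1* (r = 0.84, Spearman rho = 0.81, adjusted permutation p = 2.25e-05 and 2.57e-05), followed by *Lama2* and *Lamc1* (r = 0.83, rho = 0.75). Both raw permutation p-values were 1e-05, the smallest that 100000 permutations can give. Without the 2 mice farthest from the median of the first-named chain, r was 0.81 and 0.80. *Lama3* and *Lamb1* ran in opposite directions (r = -0.49, rho = -0.30, adjusted permutation p = 0.00126 and 0.0243), with r = -0.37 without the 2 farthest mice and r = -0.36 in the 63 mice outside day 14. For *Lama3* and *Lamb3*, partners in the epithelial laminin, r was 0.35 (rho = 0.42, adjusted permutation p = 0.00779 and 0.000377). Both values of *Lama3* lay between the 5th and 95th percentiles of the chains concerned. Chains of a library share its scaling, so the 36 values are not independent.

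**Figure D3:**
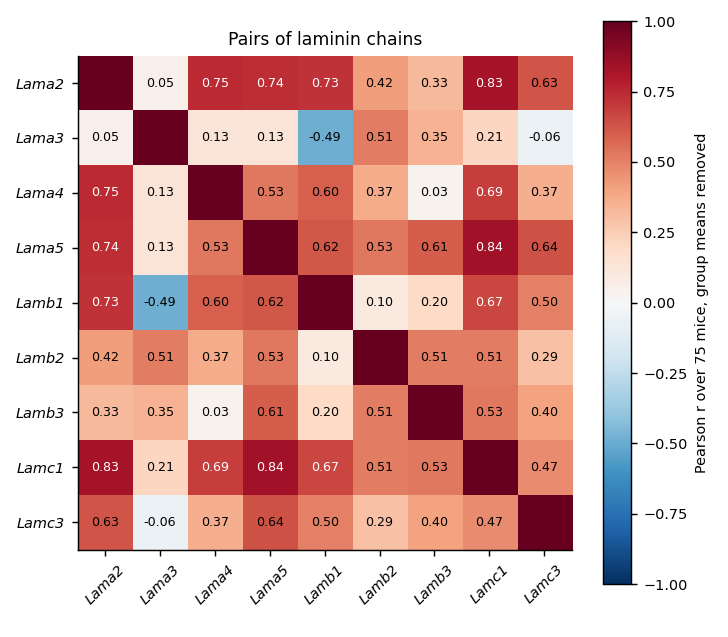
Pearson r between log2 CPM of the 9 chains (both axes) over 75 mice after removal of group means, with blue for negative and red for positive values. The pairs among *Lama2*, *Lama5* and *Lamc1* range from 0.74 to 0.84, and *Lama3* with *Lamb1* is the blue cell at -0.49.

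Cell type markers moved in the same libraries, and their part in the results was not tested. The counts of markers on day 14 stand against 32.4% of all genes higher and 29.9% lower. On that day, 5 of 7 AT1 and 5 of 7 AT2 markers were lower, 6 of 7 markers of transitional alveolar epithelium (keratins 7, 8, 18 and 19, *Cldn4*, *Sfn* and *Areg*) were higher, and so were all 6 myofibroblast markers. Summed AT2 markers were 22413 to 27404 CPM in CTRL, 6375 to 23505 CPM on day 14 and 24184 to 30352 CPM on day 42. Within groups, *Lamb1* was higher in mice with fewer AT2 markers (r = -0.82, rho = -0.73, adjusted permutation p = 9e-05 and 0.000112 over 135 chain and marker list pairs) and in mice with more smooth muscle and pericyte markers (r = 0.79, rho = 0.74). Without the 2 mice farthest from the median of the markers, r was -0.79 and 0.77, and outside day 14 it was -0.80 and 0.75. Other chains varied with these markers too. With AT2 markers, r was -0.54 for *Lama5*, -0.50 for *Lama2* and *Lamc1*, -0.48 for *Lamc3* and -0.41 for *Lama4* (adjusted permutation p under 0.05). It was 0.14 for *Lamb2*, -0.04 for *Lamb3* and 0.55 for *Lama3*. With smooth muscle and pericyte markers, r was 0.66 for *Lama2*, 0.64 for *Lama5*, 0.61 for *Lamc1* and 0.58 for *Lamc3*. It was 0.34 for *Lamb2*, 0.21 for *Lamb3* and -0.29 for *Lama3*. Further lists varied with the chains to a similar degree. With myofibroblast markers, r was 0.68 for *Lamb1*, 0.63 for *Lama5*, 0.57 for *Lamc1*, 0.06 for *Lamb2* and -0.31 for *Lama3*. With airway markers, r was -0.63 for *Lamc1*, -0.56 for *Lamb1*, -0.52 for *Lama5* and 0.09 for *Lama3*. For *Lamb1* and AT1 markers, r was -0.63. *Lama3* was higher in mice with more AT1 markers (r = 0.60, rho = 0.43, adjusted permutation p = 9e-05 and 0.00191), with r = 0.50 without the 2 farthest mice. *Lamb3* followed the transitional epithelial markers (r = 0.63, rho = 0.58, adjusted permutation p = 9e-05 and 0.000112), with r = 0.60 without the 2 farthest mice. For *Lama4*, r was -0.10 with endothelial markers (adjusted permutation p = 0.550) and 0.58 with smooth muscle and pericyte markers (rho = 0.50). Transitional markers summed to 760 to 973 CPM in CTRL and 1217 to 2402 CPM on day 7, the day with their highest median, when *Lamb3* had its smallest increase. Of the other lists on day 14, endothelial markers were lower in 8 of 9, airway markers in 5 of 5, alveolar fibroblast markers in 5 of 6 with 1 higher, and Schwann cell markers in 3 of 3 tested. Smooth muscle and pericyte markers were split, with 3 higher and 3 lower of 9, as were adventitial fibroblast markers (2 and 1 of 5) and leukocyte markers (1 and 2 of 5 tested). Of the mesothelial (5), basal (4 tested) and cardiac (5) markers, 1 each was higher and 0 were lower, and 0 of 3 skeletal muscle markers tested were called. Basal cell markers summed to at most 34.2 CPM in any mouse.

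**Figure D4:**
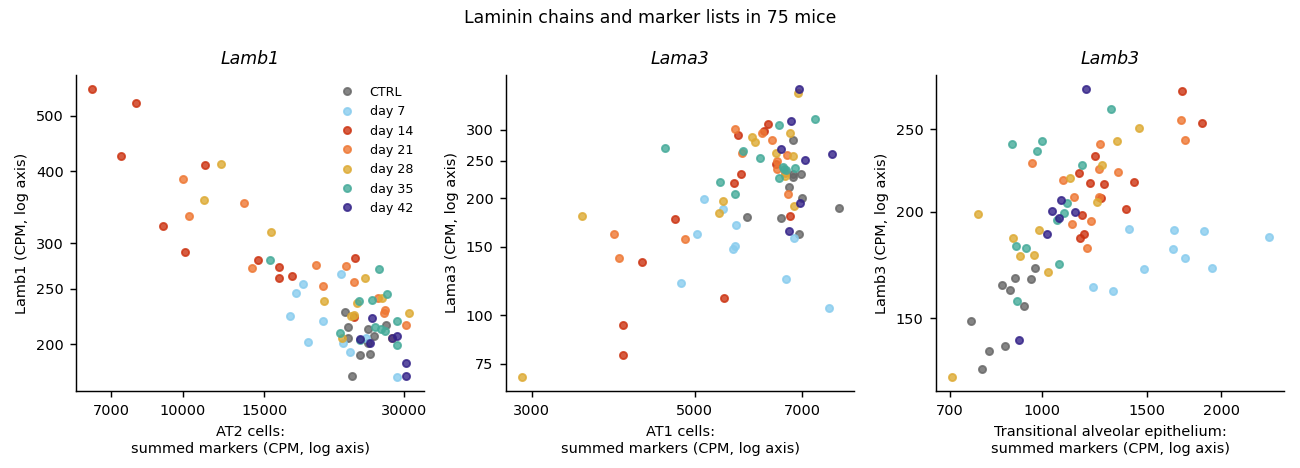
Expression in CPM of *Lamb1*, *Lama3* and *Lamb3* (y axes) against summed AT2, AT1 and transitional epithelial markers in CPM (x axes), both on log axes, with 1 point per mouse colored by group. Mice on day 14 reach the highest *Lamb1* at the lowest AT2 sums, and mice on day 7 lie to the right of the others at moderate *Lamb3*.

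Of 20 partners of laminin in the basement membrane network, 14 were raised and 4 lowered on day 14, with a median log2FC of 0.56, against 32.4% and 29.9% of all genes and a median of 0.0079. On day 42, 6 were raised and 3 lowered (median 0.08; background 13.7% and 11%), and 11 were lower on day 42 than on day 14 (18.8% of all genes). The largest increases on day 14 were in *Col15a1* (log2FC 2.48, standard error 0.27), a collagen at the border of basement membrane and interstitium, and in *Col4a1* (1.61, 0.16) and *Col4a2* (1.37, 0.15), the widespread type IV collagen chains. *Col4a1* was still raised on day 42 (0.71, adjusted p = 0.00189), a day on which *Lamb1* and *Lamc1* were at -0.03. *Nid1*, which links laminin gamma 1 to type IV collagen, had a log2FC of 1.01 on day 14 (adjusted p = 8.90e-12) and 0.07 on day 42 (adjusted p = 0.739), and was named after its values were seen. The largest decreases were in *Ntn4* (-0.78, standard error 0.07), whose netrin product binds laminin and disrupts its network, *Col4a6* (-0.66, 0.16) and *Frem2* (-0.62, 0.25).

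Of 13 genes for receptors and hemidesmosome parts, 7 were raised and 2 lowered on day 14 (median log2FC 0.30), against 32.4% and 29.9% of all genes, and 3 were raised and 0 lowered on day 42, against 13.7% and 11%. The laminin-binding integrin subunit *Itga7* was raised on day 14 (log2FC 1.43, standard error 0.16, adjusted p = 6.14e-12) and on day 42 (1.62, 0.18, adjusted p = 8.91e-11), with a difference between these days of 0.18 (adjusted p = 0.412). *Dag1*, encoding dystroglycan, had a log2FC of 0.49 on day 14 (adjusted p = 1.41e-06) and the cytolinker *Plec* one of 0.44 (adjusted p = 0.00372). The hemidesmosomal collagen *Col17a1* was lowered on day 14 (log2FC -1.87, standard error 0.32, adjusted p = 7.11e-07), as was the integrin subunit *Itga6* (-0.23, adjusted p = 0.0440).

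**Figure D5:**
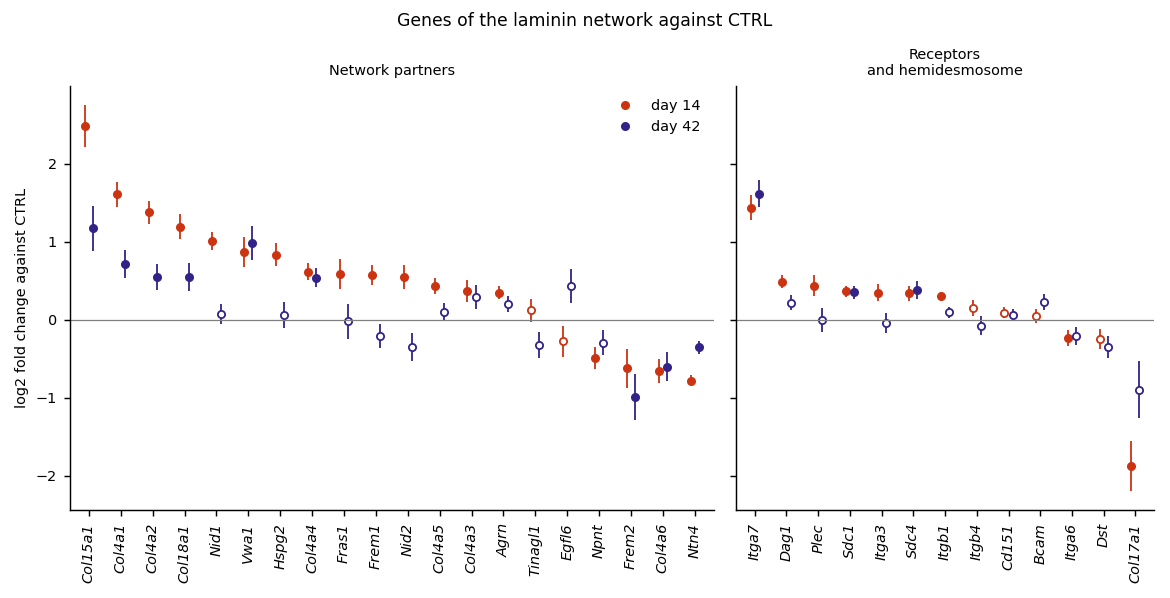
Log2 fold change against CTRL on day 14 (red) and day 42 (blue) for network partners, receptors and hemidesmosome parts, with bars for the standard error and filled points for an adjusted p under 0.05. Type IV collagens 1 and 2 drop from 1.61 and 1.37 to 0.71 and 0.55, while *Itga7* stays at 1.43 and 1.62.

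The genes most like each chain over the 7 group means of log2 CPM were found for chains whose means spanned at least 0.5. *Lamb1* and *Lamc1* were among each other's 3 closest genes of those tested (root mean square difference 0.06), and *Tshz3* was among the 3 of both. The others were *Runx2* for *Lamb1* and *Hspg2*, encoding the basement membrane proteoglycan perlecan, for *Lamc1*. *Lama2* was nearest to *Sema3d* (0.03), *Fyb* and *Clec4a1*, *Lama5* to *Maf* (0.03) and *Mfsd7a*, *Lama3* to *Fzd6* (0.05), *Neurl2* and *Ramp1*, and *Lamc3* to *Sel1l3* (0.05), *P2ry10b* and *Trpv4*. The group means of *Lama4*, *Lamb2* and *Lamb3* spanned 0.41, 0.25 and 0.498 and fell short of the limit.

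Without the library with muscle markers, 6 chains were raised on day 28, as with it, and the log2FC was 0.41 for *Lamb3* against 0.36 with it, 0.39 for *Lamb1* against 0.36 and 0.36 for *Lamc1* against 0.33. *Lama2*, a muscle chain, was at 0.48 without it and 0.46 with it.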

How the data were processed

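RNA of the inferior lobe was sequenced in 75 mice, 1 library each. The authors prepared directional polyadenylated RNA libraries, sequenced them single-end, aligned reads with STAR (2.7.0f in the submitters' processing notes) to GRCm38 with Ensembl release 96, and deposited raw counts per gene. The counting program and its use of strand are not given in the sources used here. Genes annotated antisense to exons of *Lama2*, *Lama3* and *Lamc3* held at most 2 counts in a library. All 75 columns were matched by name, 0 were left over, and all 55536 identifiers were found in the annotation.

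From these counts, edgeR 4.0.16 (R 4.3.3; quasi-likelihood F test, TMM factors, filterByExpr, 1 mean per group, all mice) gave log2FC for the 21 pairs of groups, adjusted by Benjamini-Hochberg over 16221 genes at 0.05. TMM factors ranged from 0.918 to 1.04. CPM are counts scaled by TMM library size, and log2 CPM used a prior count of 2. Intervals are 1.96 standard errors. Each CPM of the 9 chains rests on at least 183 counts, and each library is a separate mouse. No pair of libraries within a group agreed within sampling noise (375 pairs, lowest chi-square per degree of freedom 3.88). The fit was tested on simulated counts.

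The members, pathway lists, 15 marker lists (94 genes) and tests were chosen with earlier results of these data known. Pathway genes named are up to 3 largest increases and 3 largest decreases on day 14 per list with adjusted p under 0.05. Like genes are the 3 with the smallest root mean square difference of centred group means, among symbols that are not clone names with a mean log2 CPM above 1. Some items are not reported here. Marker sums were compared as log2 (CPM + 1), an analysis added after seeing the data. Alternatives were DESeq2 1.42.0, library size only, upper quartile factors, no filter, only the groups compared, the replicate block, and 3 refits without 1 mouse chosen after seeing the data. Python 3.11.15, numpy 2.4.6, pandas 2.3.3, scipy 1.17.1 and matplotlib 3.10.9 were used.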

Additional observations from a re-analysis of the deposited data

Results flagged for a closer look

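The change of 5 chains against CTRL differed between day 14 and day 42 by the direct test of those groups. The log2 difference of day 42 from day 14 was -0.60 for *Lama2*, -0.42 for *Lama4*, -0.43 for *Lama5*, -0.77 for *Lamb1* and -0.76 for *Lamc1*. For *Lama4* the value on day 14 was near CTRL and that on day 42 below it, whereas the other 4 were raised on day 14 and had no call on day 42. A gap test for a mouse far from its group was applied to the 9 chains in CTRL, day 7 and day 42 (27 groups), and it marked 0, where chance alone marks about 1 in 20. Days 14 to 35 hold more than 10 mice each and were not tested in this way.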

How the results depend on the processing

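Of 423 recomputed log2FC values of the 9 chains, 399 kept their direction and their side of the threshold, 6 lost a call, 4 gained one and 14 changed sign. All sign changes were in 2 values near 0 without a call. *Lama4* on day 14 (0.0020) became -0.0053 with DESeq2, -0.0229 with library size as the only scaling, -0.0310 with upper quartile factors, -4.82e-05 without the filter, -0.0067 with only the groups compared, and -0.0372 and -0.0064 without day 14 replicate 1 and 8. *Lamc3* on day 42 against day 14 (-0.0019) became 0.0035, 0.0309, 0.0277, 0.0060, 0.0055, 0.0856 and 0.0205 in the same order. On day 7 the 5 chains called became 3 with DESeq2 and 1, *Lama4*, without the filter. On day 35 the 4 called became 7 with only the groups compared, which added *Lama3* (0.28, adjusted p = 0.0140), *Lamb1* (0.17, adjusted p = 0.0302) and *Lamc1* (0.20, adjusted p = 0.0219), and on day 42 the same fit added *Lamc3* (0.43, adjusted p = 0.0228). The cause was not tested. Counts of called chains on days 14, 21, 28 and 42 and for day 42 against day 14 stayed within 1.5 times under all settings run. With the replicate block, the call of each of 63 values was kept, with 6 chains called on day 14 as without it. Deviations of mice with the same replicate number had a median correlation of 0.0057 (63 of 204 pairs over 0.1), against 0.0018 for other numbers (556 of 2196). Whether mice with the same number shared a batch cannot be told from a median of this kind. Scalings moved the median of all genes by at most 0.03. Of 357 counts of pathway and marker genes called, 342 stayed within 1.5 times. Skeletal muscle markers called on day 28 went from 3 to 0 without replicate 10. Ordered by level per length in CTRL, 3 alpha and 2 beta chains changed place with the longest transcript in place of merged exons, and *Lamc1* lay above *Lamc3* on both. Order of the groups and like genes were also recomputed with a prior count of 0.5, which moved no group and no like gene. Depth of about 10677163 counts left at least 183 counts per library for each chain, so the spread between mice, rather than counting, limits these values.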
